A study of Homo sapiens with 15 samples.

Results

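Cadherins are calcium-dependent adhesion proteins of the cell surface, and 9 genes filed under classical cadherins were chosen here by symbol: CDH1, CDH2, CDH3, CDH4, CDH6, CDH11, CDH13, CDH16 and CDH24. Of these 9, 7 were matched by Ensembl identifier among the 16604 genes of the deposited expression table and are described across 5 ovarian cancer cell lines. CDH4 and CDH11 were not analysed here. The rule that picks the genes uses symbols and no measured value, but the group was proposed with earlier results of these data known.

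In a classical cadherin the extracellular part binds a cadherin on the neighbouring cell, and the cytoplasmic tail binds p120-catenin and either beta-catenin or plakoglobin, which are linked through alpha-catenin to actin. CDH1 (E-cadherin), CDH2 (N-cadherin) and CDH3 (P-cadherin) are type I, and CDH6 (K-cadherin) and CDH24 are type II. The group name does not hold for all 7: CDH13 (T-cadherin) has no cytoplasmic tail and is held by a GPI anchor, and CDH16 (kidney-specific cadherin) is a 7D cadherin with a short tail. The exchange of CDH1 for CDH2 is a textbook mark of the epithelial to mesenchymal transition, while the ovarian surface epithelium normally carries CDH2 and CDH6 is known from serous ovarian carcinoma.

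The coding sequence at the start of the mature protein is shown because it is where the types differ: type I cadherins insert a single tryptophan into the partner molecule and type II cadherins insert 2. Each line gives the 36 bases (12 codons) that follow the proprotein cleavage motif, 5′ to 3′, read from GENCODE v29 transcripts on GRCh38, with tryptophan codons (TGG) in capitals.
CDH1: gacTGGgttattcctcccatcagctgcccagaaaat
CDH2: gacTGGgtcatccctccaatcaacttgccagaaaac
CDH3: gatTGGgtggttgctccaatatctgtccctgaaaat
CDH6: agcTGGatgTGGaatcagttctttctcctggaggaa
CDH24: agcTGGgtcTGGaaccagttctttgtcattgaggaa
CDH13: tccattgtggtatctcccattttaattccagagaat
CDH1 (chr16:68808499-68808534, + strand, exon 4 of 17), CDH2 (chr18:28011879-28011914, - strand, exon 4 of 16) and CDH3 (chr16:68678209-68678244, + strand, exon 4 of 16) held 1 tryptophan codon in this stretch. CDH6 (chr5:31267633-31267668, + strand, exon 2 of 12) and CDH24 (chr14:23055566-23055601, - strand, exon 2 of 14) held 2. CDH13 (chr16:83125433-83125468, + strand, exon 5 of 15) held 0. No sequence is given for CDH16, in which the cleavage motif was not found.

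RNA was measured in 15 samples, 3 biological replicates of each of 5 lines, by sequencing of polyA-captured RNA from cells grown in DMEM with serum. OVCAR4 is an established cell line from a high-grade serous ovarian cancer, and the parental stock, Ovcar4Parental, is labelled as sensitive to carboplatin and cisplatin. Ov4Cis (labelled cisplatin resistant) and Ov4Carbo (labelled carboplatin resistant) are lines derived by culture in rising concentrations of the named platinum drug. Ov4Carbo4 and Ov4Carbo7 each grew from a single Ov4Carbo cell, so each stands for 1 clone, and both are labelled carboplatin resistant. All 4 derived lines descend from the same parent, and the labels give no drug in the cultures that were sequenced. Values are log2 RPKM as deposited. RPKM are reads corrected for gene length and for the library's read total, and per the deposited table's name these were further normalized with cqn (conditional quantile normalization). The depth of the libraries is unknown here, so the spread between replicates is the measure of precision.

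The sample titles carry numbers in 2 series. Replicate 1 of Ov4Carbo and all samples of both clones fall in the first, and the parental line, Ov4Cis and the other Ov4Carbo replicates in the second. No label names this a batch. Ov4Carbo is the only line in both, so for the clones against the parental line or Ov4Cis, line and title series cannot be told apart. Values with a term for the series, which rests on replicate 1 of Ov4Carbo against its other replicates, are given where they change a result. Of 13 high-grade serous carcinoma markers in the table, 12, 12, 11 and 11 had a line mean of at least log2 RPKM 1 in the parental line, Ov4Carbo, Ov4Carbo4 and Ov4Carbo7, and 7 in Ov4Cis. The lineage factor PAX8 had line means from 5.85 to 6.74, while WT1 had line means from -5.07 to -1.52. Of the leukocyte list 2 of 8 genes were in the table, and 0 reached log2 RPKM 1 in any line.

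CDH1, the adhesion molecule of epithelial adherens junctions, was lower in all 4 resistant lines than in the parental line, and by far the lowest in Ov4Cis. The 3 parental replicates had log2 RPKM values of 4.90, 4.66 and 4.33. Ov4Cis had -3.00, -4.06 and -3.49, Ov4Carbo 2.35, 2.99 and 3.31, Ov4Carbo4 3.52, 3.93 and 3.41, and Ov4Carbo7 1.75, 2.29 and 1.37. All parental values lay above all values of the other lines, and all Ov4Cis values lay far below the rest. On the ranking of all genes within a line, the mean of CDH1 stood at percentile 79.9 in the parental line and 1.75 in Ov4Cis.

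The log2 fold change of CDH1 in Ov4Cis against the parental line was -8.14 (SE 0.32, adjusted p = 2.25e-09, limma with Benjamini-Hochberg adjustment over all genes), a mean level 283-fold lower. The size of that fold rests on a value near the bottom of the scale: on the log2(RPKM + 1) scale the change was -4.56. In Ov4Carbo CDH1 fell by 1.75 (SE 0.32, adjusted p = 0.00131) and in Ov4Carbo7 by 2.82 (adjusted p = 1.96e-05). With the title series term the Ov4Carbo7 change was -2.03, and among parental and Ov4Carbo samples of a single title series the Ov4Carbo change was -1.48, both still called. The Ov4Carbo4 change of -1.01 (SE 0.32, adjusted p = 0.0234) was at the edge of the call, which takes an adjusted p below 0.05 together with a log2 fold change of 1 or more in either direction. It lay between -1.17 and -0.87 when 1 replicate was left out and was lost without replicate 1 or 3 of Ov4Carbo4 or replicate 1 or 2 of the parental line. With the title series term it was -0.21, and on the log2(RPKM + 1) scale -0.95, not called in either. An adjusted p under 0.01 also removed the call.

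In order of level the lines ran from the parental line through Ov4Carbo4, Ov4Carbo and Ov4Carbo7 to Ov4Cis. The step between Ov4Carbo4 and Ov4Carbo, 0.74, did not pass the test (limma adjusted p = 0.08). The largest step was the last, 5.32 between Ov4Carbo7 and Ov4Cis (limma adjusted p = 1.57e-07). Within Ov4Carbo, replicate 1 had the lowest CDH1 and CDH3 and the highest CDH2 of the 3. In bulk RNA, fewer cells that carry a transcript and less of it per cell cannot be told apart.

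**Figure D1:**
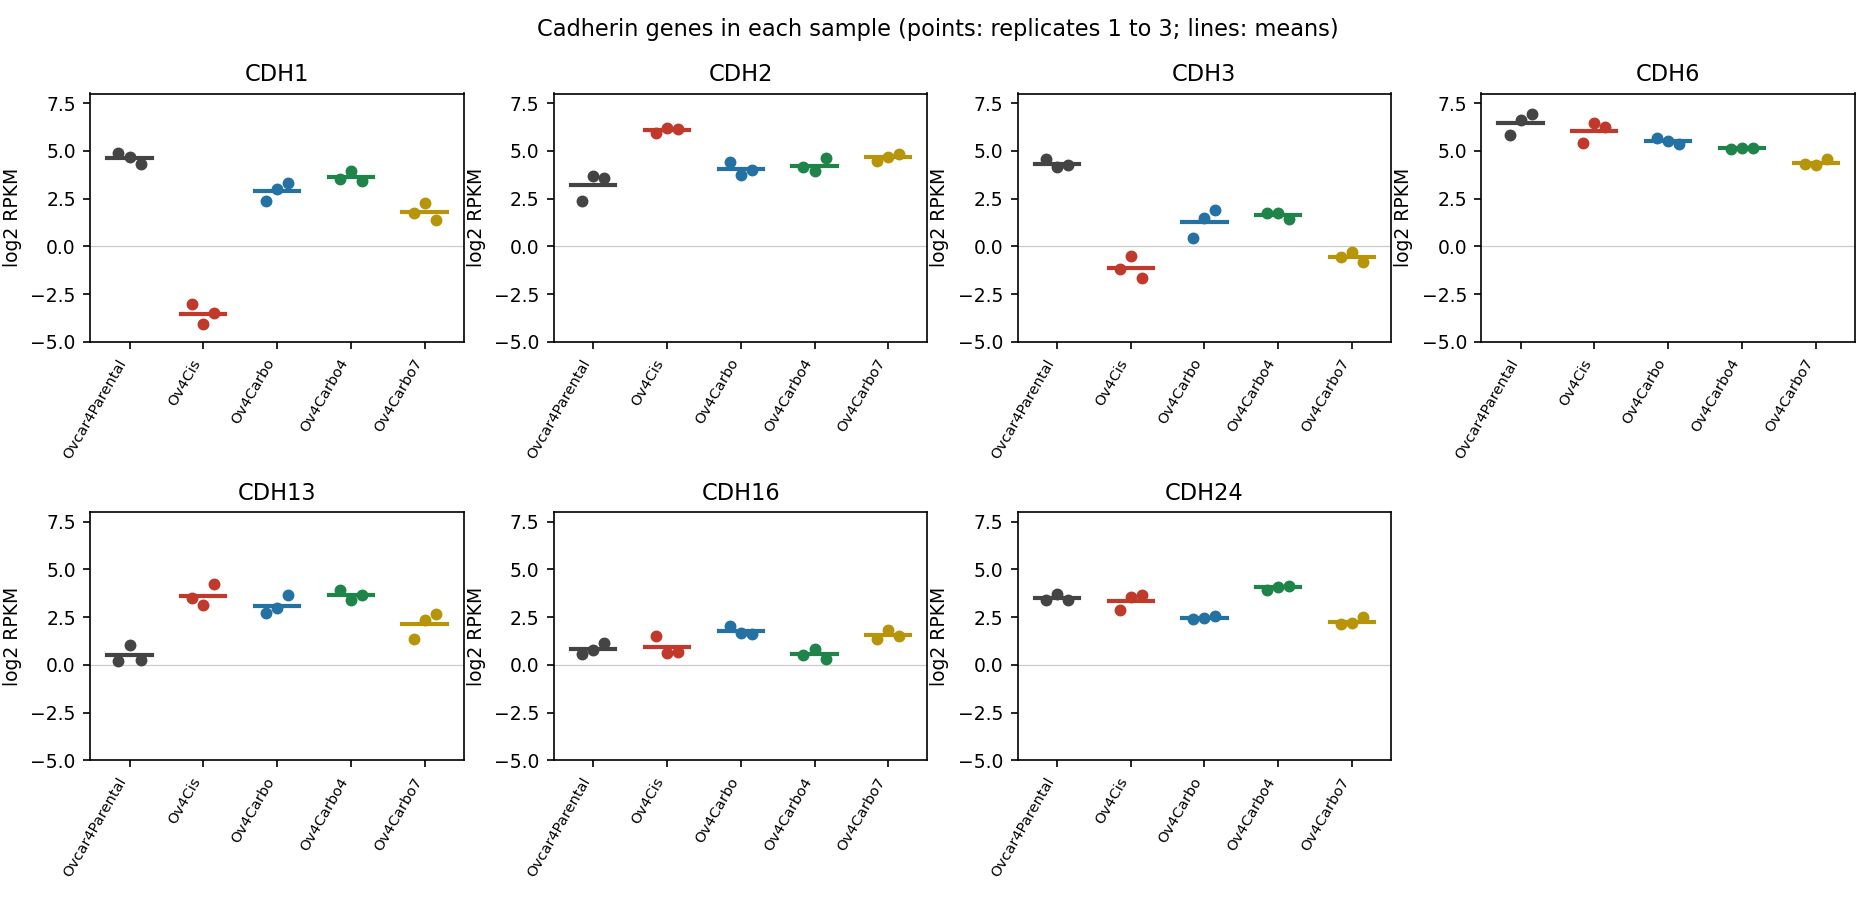
Log2 RPKM of the 7 cadherin genes (y axis) in the 5 lines (x axis); points are the 3 replicates of a line and bars their mean. CDH1 and CDH3 sit highest in the parental line and lowest in Ov4Cis, CDH2 shows the opposite order at its ends, and CDH6 stays above log2 RPKM 4 in every sample.

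CDH2, the cadherin of neural and mesenchymal cells, was higher in Ov4Cis than in any other line. Its log2 RPKM values were 2.40, 3.66 and 3.56 in the parental line and 5.91, 6.17 and 6.12 in Ov4Cis. They were 4.44, 3.75 and 3.99 in Ov4Carbo, 4.14, 3.93 and 4.60 in Ov4Carbo4, and 4.46, 4.70 and 4.84 in Ov4Carbo7. Replicate 1 of the parental line lay more than 1 unit below its other replicates, and even so every parental value was below every value of the resistant lines.

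In Ov4Cis the log2 fold change of CDH2 against the parental line was 2.86 (SE 0.30, adjusted p = 1.05e-05), a 7.26-fold higher mean. The change was 1.46 in Ov4Carbo7 (SE 0.30, adjusted p = 0.00182) and 0.89, not called, with the title series term. In Ov4Carbo4 it was 1.02 (adjusted p = 0.0167), and this call was lost without parental replicate 1 (0.62), without Ov4Carbo4 replicate 3 (0.83) and with the title series term (0.45). The call was also lost on the log2(RPKM + 1) scale (0.94), in a fit to the compared lines alone and at an adjusted p under 0.01. In Ov4Carbo the CDH2 change was 0.86 (adjusted p = 0.043), short of the fold limit. It lay between 0.45 and 1.08 when a replicate was left out, with a call without parental replicate 2 or 3 or Ov4Carbo replicate 2. Ov4Cis exceeded the next line, Ov4Carbo7, by 1.40 (adjusted p = 0.00267). Ov4Carbo4 overlapped with both Ov4Carbo7 and Ov4Carbo and did not pass the test against either. Ov4Carbo7 lay above Ov4Carbo without overlap, but their difference of 0.60 did not pass the test (limma adjusted p = 0.135).

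CDH3, the cadherin of basal epithelial layers and placenta, lay on chromosome 16 beside CDH1 and fell in all 4 resistant lines. The parental log2 RPKM values were 4.55, 4.14 and 4.24. They were -1.20, -0.51 and -1.67 in Ov4Cis, 0.46, 1.47 and 1.91 in Ov4Carbo, 1.76, 1.76 and 1.41 in Ov4Carbo4, and -0.55, -0.30 and -0.82 in Ov4Carbo7. No value of a resistant line came within 2 units of the parental ones, and Ov4Carbo7 overlapped with Ov4Cis.

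The log2 fold change of CDH3 against the parental line was -5.44 in Ov4Cis (SE 0.34, adjusted p = 1.44e-07) and -4.87 in Ov4Carbo7 (adjusted p = 5.80e-07). It was -3.03 in Ov4Carbo (adjusted p = 4.22e-05) and -2.67 in Ov4Carbo4 (adjusted p = 7.05e-05). On the log2(RPKM + 1) scale the Ov4Cis and Ov4Carbo7 changes were -3.82 and -3.63. With the title series term the Ov4Carbo7 and Ov4Carbo4 changes were -3.64 and -1.44, both called, and the Ov4Carbo change within a single title series was -2.62. In Ov4Carbo, Ov4Carbo4 and Ov4Carbo7 the fall of CDH3 was larger than that of CDH1, and in Ov4Cis the fall of CDH1 was the larger, though a difference between genes was not tested. Unlike CDH1, CDH3 did not separate Ov4Cis from Ov4Carbo7, which differed by -0.57 (SE 0.34, adjusted p = 0.216). That difference was -1.79, and called, with the title series term.

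Of the genes of the table that neighbour CDH3 and CDH1 on chromosome 16, 8 were examined: SLC7A6OS, PRMT7 and ZFP90 before CDH3, the unnamed gene ENSG00000260860 and the pseudogene HSPE1P5 between the pair, and TANGO6, HAS3 and CHTF8 after CDH1. Against the parental line the only call among them in the 4 comparisons was HAS3, a hyaluronan synthase, higher by 1.19 in Ov4Carbo7 (SE 0.16, adjusted p = 6.77e-05). In Ov4Cis, where CDH1 and CDH3 changed by -8.14 and -5.44, the 8 neighbours had log2 fold changes from -0.41 (ENSG00000260860) to 0.32 (TANGO6). ENSG00000260860, at -0.88 in Ov4Carbo, -0.69 in Ov4Carbo4 and -0.28 in Ov4Carbo7, was called lower in these lines with the title series term (-1.16, -1.55 and -1.14). It and HSPE1P5 overlap CDH3 in the annotation, and whether the authors' counting used strand is not stated, so reads in the overlap may have been shared.

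**Figure D2:**
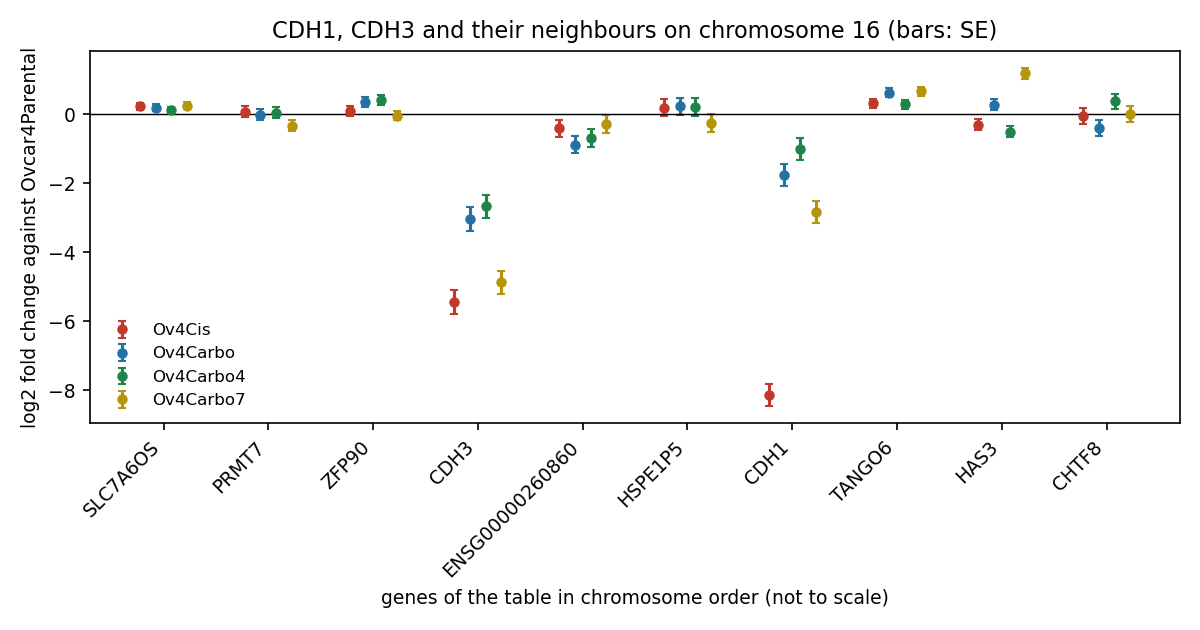
Log2 fold change against the parental line (y axis, bars SE) of CDH3, CDH1 and their 8 neighbours in chromosome order (x axis, not to scale) in the 4 resistant lines. CDH3 and CDH1 lie between -8.14 and -1.01, and every neighbour lies between -0.88 and 1.19.

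CDH6, a type II cadherin of kidney and Müllerian tissue, had the highest mean level per gene length of the 7 genes in the parental line, Ov4Carbo and Ov4Carbo4. In Ov4Cis CDH2 stood at 6.07 and CDH6 at 6.03, and in Ov4Carbo7 CDH2 at 4.66 and CDH6 at 4.38. The parental log2 RPKM values were 5.83, 6.61 and 6.91, and the Ov4Cis values 5.41, 6.43 and 6.25. Ov4Carbo had 5.67, 5.54 and 5.38, Ov4Carbo4 5.12, 5.17 and 5.17, and Ov4Carbo7 4.32, 4.25 and 4.57. Parental and Ov4Cis values overlapped, and all 3 values of Ov4Carbo7 lay below every other sample.

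CDH6 fell by 2.07 in Ov4Carbo7 (SE 0.28, adjusted p = 7.66e-05) and by 1.29 in Ov4Carbo4 (SE 0.28, adjusted p = 0.00261), and these changes were -2.27 and -1.50 with the title series term. The change in Ov4Carbo was -0.92 (adjusted p = 0.0227), short of the fold limit, and -1.23, a call, without parental replicate 1. In Ov4Cis it was -0.42 (SE 0.28, adjusted p = 0.267), so a difference from the parental line was not detected there. Neighbouring steps in the order of the lines were small, between 0.38 and 0.77, and the smallest limma adjusted p among them was 0.0331, for Ov4Carbo4 over Ov4Carbo7.

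CDH24, a type II cadherin also called cadherin-like 24, split the 2 clones. Its log2 RPKM values were 3.38, 3.70 and 3.38 in the parental line, 2.85, 3.56 and 3.67 in Ov4Cis and 2.42, 2.44 and 2.56 in Ov4Carbo. They were 3.94, 4.09 and 4.14 in Ov4Carbo4 and 2.14, 2.18 and 2.48 in Ov4Carbo7. Ov4Carbo4 lay above every other sample, and Ov4Carbo and Ov4Carbo7 below every sample of the other lines. Against the parental line CDH24 fell by 1.22 in Ov4Carbo7 (SE 0.19, adjusted p = 2.19e-04). The Ov4Carbo change of -1.01 (adjusted p = 0.00145) was at the fold limit. It was -0.98 without Ov4Carbo replicate 1 and within a single title series, -0.99 without Ov4Carbo replicate 2 and -0.90 without parental replicate 2, and then not called. On the log2(RPKM + 1) scale it was also -0.90 and not called. The Ov4Carbo4 change of 0.57 (adjusted p = 0.0282) and the Ov4Cis change of -0.13 (adjusted p = 0.635) were not called.

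Both other classical type II cadherins in the table, CDH5 and CDH18, are not among the 9 listed genes and were called in 2 lines each. CDH5 (VE-cadherin, the junctional cadherin of endothelium) had a line mean of 2.46 in the parental line and 5.13 in Ov4Cis, a change of 2.67 (SE 0.14, adjusted p = 2.48e-08). In Ov4Carbo4 it stood at 4.42, a change of 1.96 (adjusted p = 5.02e-07). Of the 6 endothelial markers listed, 3 were in the table, and CDH5 was the only one at log2 RPKM 1 or more in any line: VWF had line means from -1.65 to -0.18 and KDR from -4.59 to -0.89. CDH18, a type II cadherin of neural tissue, rose by 1.96 in Ov4Carbo (SE 0.15, adjusted p = 2.40e-06), from 3.13 to 5.09, and by 1.46 in Ov4Carbo7 (adjusted p = 1.18e-05). Its change was -0.26 in Ov4Cis (adjusted p = 0.214).

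CDH13, the GPI-anchored T-cadherin and a receptor for adiponectin, rose in all 4 resistant lines. Its parental log2 RPKM values were 0.21, 1.04 and 0.26. They were 3.49, 3.12 and 4.24 in Ov4Cis, 2.69, 2.96 and 3.64 in Ov4Carbo, 3.90, 3.41 and 3.66 in Ov4Carbo4, and 1.35, 2.36 and 2.66 in Ov4Carbo7. Every resistant sample lay above every parental one. The log2 fold changes were 3.15 in Ov4Carbo4 (SE 0.38, adjusted p = 4.48e-05), 3.11 in Ov4Cis (adjusted p = 4.22e-05), 2.59 in Ov4Carbo (adjusted p = 3.07e-04) and 1.62 in Ov4Carbo7 (adjusted p = 0.00457). With the title series term the Ov4Carbo4 and Ov4Carbo7 changes were 3.77 and 2.24, both called. Ov4Carbo4, Ov4Cis and Ov4Carbo overlapped, and their neighbouring steps of 0.04 and 0.52 did not pass the test.

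CDH16, a cadherin of kidney and thyroid epithelium and a target of PAX8, was low in every line and had the narrowest range of line means among the 7 genes, 1.22. Its values ran from 0.33 (Ov4Carbo4 replicate 3) to 2.06 (Ov4Carbo replicate 1). Against the parental line it was not called in any of the 4 lines. The change closest to the limit was 0.95 in Ov4Carbo (SE 0.25, adjusted p = 0.0116), which was called without parental replicate 3 (1.11), Ov4Carbo replicate 2 (1.01) or Ov4Carbo replicate 3 (1.03) and was 0.81, not called, without Ov4Carbo replicate 1.

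The 4 comparisons with the parental line share its 3 samples, so their values are set side by side and not treated as independent. In Ov4Cis 2 of the 7 genes were called higher (CDH2, CDH13) and 2 lower (CDH1, CDH3), where 8.46% of all genes were called higher and 7.41% lower. In Ov4Carbo 1 was called higher (CDH13) and 3 lower (CDH1, CDH3, CDH24), where 5.76% of all genes were higher and 6.93% lower. In Ov4Carbo4 2 were called higher (CDH2, CDH13) and 3 lower (CDH1, CDH3, CDH6), against 7.43% and 7.7% of all genes. In Ov4Carbo7 2 were called higher (CDH2, CDH13) and 4 lower (CDH1, CDH3, CDH6, CDH24), against 9.26% and 7.75%. In the limma F-test over the 5 lines all 7 genes had an adjusted p under 0.05, from 9.47e-09 for CDH1 to 0.00321 for CDH16, and so did 76.9% of all genes, so that test separates these genes little from the rest.

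**Figure D3:**
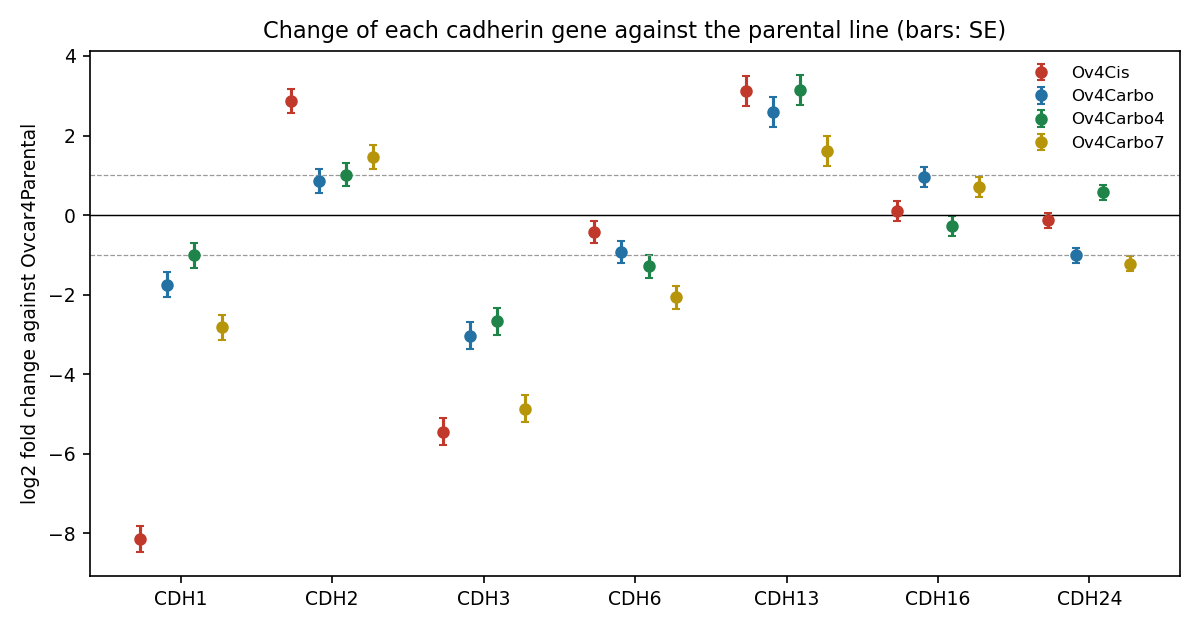
Log2 fold change of each cadherin gene against the parental line (y axis, bars SE) in the 4 resistant lines, with dashed lines at the fold limit of 1 in either direction. CDH1 and CDH3 lie at or below -1.01 in all 4 lines and CDH13 at or above 1.62, while CDH16 stays inside the limits.

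The clones can be set beside the line they grew from. Against Ov4Carbo, Ov4Carbo4 had 1 of the 7 genes called higher, CDH24 by 1.58 (SE 0.19, adjusted p = 4.90e-05), and 1 lower, CDH16 by -1.22 (SE 0.25, adjusted p = 0.00212), where 7.58% and 6.64% of all genes were called. On the log2(RPKM + 1) scale the CDH16 change was -0.84 and not called. Within the first title series, against Ov4Carbo replicate 1 alone, CDH1 (1.27) and CDH3 (1.18) were called higher too, where the lone sample is assumed to vary like the others. Against Ov4Carbo, Ov4Carbo7 had 0 genes called higher and 3 lower, where 7.72% of all genes were higher and 5.62% lower: CDH3 by -1.84 (SE 0.34, adjusted p = 0.00137), CDH6 by -1.15 (adjusted p = 0.00641) and CDH1 by -1.08 (adjusted p = 0.0188). No share of all genes is given for an unadjusted p under 0.05. By limma at that threshold 0 of the 7 genes were higher and 4 lower. The added one was CDH13 (-0.97, SE 0.38), which was called without Ov4Carbo replicate 1 (-1.18) or Ov4Carbo7 replicate 3 (-1.24). The CDH1 call was lost without Ov4Carbo7 replicate 3 or without Ov4Carbo replicate 2 or 3, and within the first title series CDH1 changed by -0.55, CDH3 by -1.02 and CDH6 by -1.28, the last 2 called. With the title series term over all samples the CDH3 change was also -1.02 but not called. The CDH1 call was lost too on the log2(RPKM + 1) scale (-0.90), in a fit to the compared lines alone and at an adjusted p under 0.01.

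Between the clones, which lie in the same title series, 4 of the 7 genes were lower in Ov4Carbo7 and 0 higher, where 9.86% of all genes were lower, 11.1% higher and 20.9% called in either direction. By limma at an unadjusted p under 0.05, for which no share of all genes is given, 5 were lower and 1 higher. CDH3 differed by -2.20 (SE 0.34, adjusted p = 1.88e-04), CDH1 by -1.81 (adjusted p = 4.46e-04), CDH24 by -1.79 (adjusted p = 8.40e-06) and CDH13 by -1.53 (adjusted p = 0.00513). For each of these 4 genes the 3 values of one clone lay apart from the 3 of the other. CDH16 was higher in Ov4Carbo7 by 0.99 (SE 0.25, adjusted p = 0.00538), just short of the fold limit and past it without Ov4Carbo4 replicate 2 (1.13) or Ov4Carbo7 replicate 1 (1.09) or 3 (1.01).

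Ov4Cis was also compared with each carboplatin line. Against Ov4Carbo 1 gene was higher (CDH2 by 2.00, adjusted p = 2.74e-04) and 2 lower (CDH1 by -6.40, adjusted p = 2.80e-08, and CDH3 by -2.41, adjusted p = 1.96e-04), where 7.88% and 5.9% of all genes were called. Within the second title series these differences were 2.19, -6.66 and -2.82, all called. Without Ov4Cis replicate 1, CDH24 (1.14) and CDH16 (-1.14) were called as well. Against Ov4Carbo4 the same 3 genes were called, at 1.84, -7.13 and -2.77, where 9.12% of all genes were higher and 7.72% lower, and CDH6 (0.88) was called only without Ov4Cis replicate 1 (1.19). Against Ov4Carbo7 4 were higher (CDH6 by 1.65, CDH13 by 1.49, CDH2 by 1.40 and CDH24 by 1.09) and 1 lower (CDH1 by -5.32), where 7.46% and 7.2% of all genes were called. In that comparison CDH13 (0.88) and CDH24 (1.01) were not called with the title series term. CDH24 was also not called without Ov4Cis replicate 2 (0.99) or 3 (0.94) or on the log2(RPKM + 1) scale (0.96).

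The make-up of the cadherin transcripts was described as each gene's share of the summed RPKM of the 7 genes, a comparison per gene length. In the parental line CDH6 held 55.6% ± 10.5 (SD, n = 3), CDH1 16.3% ± 6.34, CDH3 12.9% and CDH2 5.97% ± 1.7. In Ov4Cis CDH2 held 42.3% ± 5.28 and CDH6 41.4% ± 6.84, while CDH1 held 0.061% ± 0.035 and CDH3 0.305%. Ov4Carbo7 had a similar leading pair, with CDH2 at 40.3% ± 0.63 and CDH6 at 33.2% ± 3.17, but kept CDH1 at 5.79% ± 2. In Ov4Carbo CDH6 held 50.6% ± 4.91 and CDH2 18.5% ± 3.89. Ov4Carbo4 was the most even, with CDH6 at 35.2% ± 1.03, CDH2 at 18.8% ± 3.95, CDH24 at 16.5%, CDH13 at 12.6% and CDH1 at 12.3% ± 2.68. The summed RPKM was 161 ± 29.3 in the parental line, 162 ± 32.3 in Ov4Cis, 63.2 ± 7.33 in Ov4Carbo7, 91.7 ± 4.05 in Ov4Carbo and 101 ± 3.31 in Ov4Carbo4 (SD, n = 3 each).

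**Figure D4:**
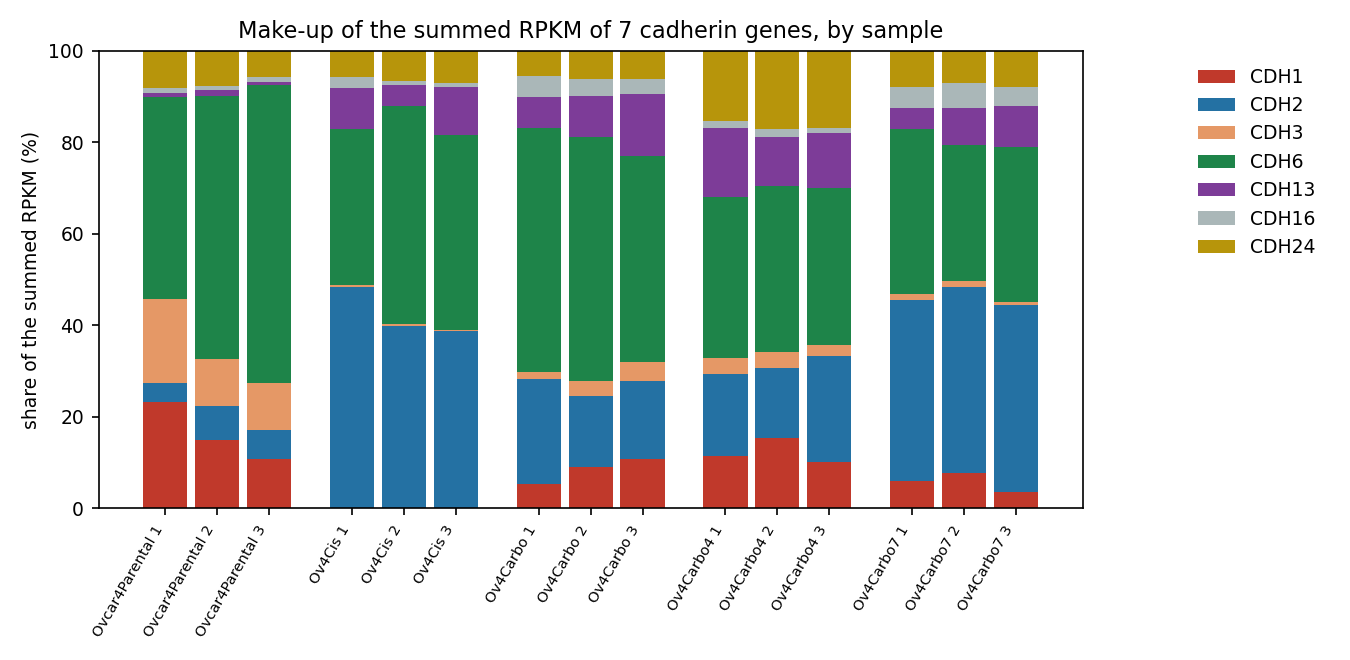
Share of each cadherin gene in the summed RPKM of the 7 genes (y axis, percent) in each of the 15 samples (x axis). CDH1 and CDH3 are visible in the parental bars and all but absent in the Ov4Cis bars, and CDH2 takes 40.3% on average in Ov4Carbo7 and 42.3% in Ov4Cis.

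The difference of CDH1 and CDH2 within a sample, in log2 units of RPKM, was positive in all 3 parental replicates (2.50, 1.00 and 0.76) and negative in all 12 samples of the resistant lines. It was -9.58 ± 0.66 in Ov4Cis, -2.86 ± 0.55 in Ov4Carbo7, -1.18 ± 0.79 in Ov4Carbo and -0.61 ± 0.59 in Ov4Carbo4 (SD, n = 3 each). The Ov4Carbo4 replicates ran from -0.01 to -1.19, so 1 of them had near equal levels of both genes. Across the 15 samples the correlation of CDH1 with CDH2 was -0.928, of CDH1 with CDH3 0.796 and of CDH1 with CDH6 -0.100 (Pearson). Without Ov4Cis, over 12 samples, they were -0.817, 0.962 and 0.764, so the relation of CDH1 and CDH6 depended on that line. These are descriptions: the points share lines, 3 replicates to each.

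Genes with the most similar profiles over the 15 samples were sought among 13271 genes with a symbol and a line mean of at least log2 RPKM 1 somewhere. Closest to CDH1 were PRSS8 (prostasin, an epithelial membrane protease) with r = 0.996, SFN (stratifin, 14-3-3 sigma) with 0.989 and CRB3 (an apical polarity protein) with 0.988. PRSS8 had line means of 5.60 in the parental line, 4.26 in Ov4Carbo4, 3.71 in Ov4Carbo, 2.51 in Ov4Carbo7 and -2.54 in Ov4Cis, the same order as CDH1. Closest to CDH2 were B4GALT6 (0.963), ANGPTL1 (0.960) and PPM1F (0.957). B4GALT6, a glycolipid galactosyltransferase, rose from 0.76 in the parental line to 3.36 in Ov4Cis. Closest to CDH6 were PCBP4 (0.939), BAZ1B (0.939) and SETD1B (0.937), whose line means spanned about 1 unit or less.

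Catenins and related proteins of the adherens junction are the intracellular partners of the classical cadherins. Of 11 listed, 8 were in the table, and against the parental line 1 fell in Ov4Cis, 1 in Ov4Carbo7 and 0 in Ov4Carbo and Ov4Carbo4, with 0 called higher in any. In the order Ov4Cis, Ov4Carbo, Ov4Carbo4 and Ov4Carbo7, 15.9%, 12.7%, 15.1% and 17% of all genes were called in either direction, so 1 call among 8 genes is near the share of all genes. No share of all genes is given for an unadjusted p under 0.05 (limma). At that threshold 1 of the 8 was higher and 5 lower in Ov4Cis, 1 and 5 in Ov4Carbo, 2 and 1 in Ov4Carbo4, and 0 and 4 in Ov4Carbo7. In the order Ov4Cis, Ov4Carbo, Ov4Carbo4 and Ov4Carbo7 the median log2 fold changes were -0.43, -0.49, -0.02 and -0.29, beside medians of all genes of 0.04, 0.03, 0.07 and 0.02. The fall in Ov4Cis was that of JUP (plakoglobin, which binds classical cadherins and also desmosomal ones). Its log2 RPKM values were 5.86, 5.94 and 5.93 in the parental line and 4.34, 3.57 and 3.44 in Ov4Cis, and the change was -2.13 (SE 0.18, adjusted p = 1.52e-06). CTNNB1 (beta-catenin) had means of 6.53 in the parental line and 5.99 to 6.35 in the other lines, CTNNA1 (alpha-catenin) 7.47 and 7.10 to 7.49, and CTNND1 (p120-catenin) 6.45 and 5.95 to 6.41, with no call in any of the 4 lines. ARVCF, a relative of p120-catenin, fell by 1.03 in Ov4Carbo7 (SE 0.12, adjusted p = 3.32e-05), at the fold limit, and this call was lost without Ov4Carbo7 replicate 2 (-0.95), without parental replicate 2 (-0.99) and on the log2(RPKM + 1) scale (-0.76).

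Nectins and their partners, the second adhesion system of the same junction, were represented by all 9 listed genes. Called higher and lower were 1 and 2 in Ov4Cis, 0 and 2 in Ov4Carbo, 0 and 2 in Ov4Carbo4, and 0 and 3 in Ov4Carbo7, where 15.9%, 12.7%, 15.1% and 17% of all genes were called in either direction. At an unadjusted p under 0.05 (limma), for which no share of all genes is given, the counts were 1 and 3, 0 and 5, 1 and 2, and 1 and 8. LMO7, which ties afadin to actinin, fell in all 4 lines, by 2.76 in Ov4Cis (SE 0.28, adjusted p = 8.50e-06), 1.76 in Ov4Carbo, 1.39 in Ov4Carbo7 and 1.31 in Ov4Carbo4. PLEKHA7, which links p120-catenin to microtubules, was at 1.81 in the parental line and rose by 1.09 in Ov4Cis (adjusted p = 0.0123) but fell by 1.71 in Ov4Carbo7 (adjusted p = 6.19e-04). The Ov4Cis call of PLEKHA7 was lost without parental replicate 1 (0.97) and on the log2(RPKM + 1) scale (0.91).

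Known repressors of CDH1 transcription were measured for 6 of 12 listed genes, with ZEB2 and SNAI2 among those not analysed here. Against the parental line 2 rose and 0 fell in Ov4Cis, 2 rose and 0 fell in Ov4Carbo, 2 rose and 1 fell in Ov4Carbo4, and 3 rose and 0 fell in Ov4Carbo7. Of all genes 8.46%, 5.76%, 7.43% and 9.26% were called higher in these comparisons. The rises in Ov4Carbo and in Ov4Carbo4 were those of TWIST1 and TWIST2. TWIST2, which lies outside the rule for named genes, was low in every line. Its mean was -1.21 ± 0.86 (SD, n = 3) in the parental line. It was -0.13 in Ov4Carbo, 0.06 in Ov4Carbo4, -0.14 in Ov4Carbo7 and -0.41, not called, in Ov4Cis. At an unadjusted p under 0.05 (limma), for which no share of all genes is given, the counts higher and lower were 3 and 0, 3 and 2, 4 and 1, and 5 and 1. Their median log2 fold changes were 0.43, 0.52, 0.61 and 0.96, beside 0.04, 0.03, 0.07 and 0.02 for all genes. ZEB1, a zinc finger repressor of epithelial genes, had values of 1.95, 2.37 and 1.90 in the parental line, 3.92, 3.66 and 3.69 in Ov4Cis and 3.34, 3.42 and 3.51 in Ov4Carbo7. It rose by 1.68 in Ov4Cis (SE 0.17, adjusted p = 7.56e-06) and by 1.35 in Ov4Carbo7 (adjusted p = 4.65e-05), the latter 0.78 and not called with the title series term. In Ov4Carbo and Ov4Carbo4, with means of 2.35 and 2.53, it was not called.

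TWIST1, a bHLH repressor, was at the bottom of the scale in the parental line (-6.11, -5.51 and -5.94) and had line means of 0.33, -0.98, -0.33 and 0.39 in Ov4Cis, Ov4Carbo, Ov4Carbo4 and Ov4Carbo7. The log2 fold changes of 6.18, 4.88, 5.52 and 6.24 were called, but shrank to 1.15, 0.58, 0.82 and 1.18 on the log2(RPKM + 1) scale, where the Ov4Carbo and Ov4Carbo4 calls were lost. SNAI1 (Snail) stood at 3.08 in the parental line and between 2.59 and 3.36 in the others, with 0 calls. KLF8 fell by 2.23 in Ov4Carbo4 (SE 0.15, adjusted p = 3.90e-07).

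Several transcription and splicing factors that uphold the epithelial state fell in each resistant line. Of 13 listed, 11 were in the table, and 10, 6, 5 and 6 fell in Ov4Cis, Ov4Carbo, Ov4Carbo4 and Ov4Carbo7, with 0 called higher. Of all genes 7.41%, 6.93%, 7.7% and 7.75% were called lower. At an unadjusted p under 0.05 (limma), for which no share of all genes is given, 0, 1, 1 and 1 of the listed genes were higher and 10, 8, 8 and 9 lower. Their median log2 fold changes were -3.89, -1.30, -0.75 and -1.18, beside all-gene medians of 0.04, 0.03, 0.07 and 0.02. GRHL2 (Grainyhead-like 2, which activates CDH1) had values of 3.41, 3.42 and 3.45 in the parental line, -6.37, -6.52 and -5.38 in Ov4Cis and -6.37, -6.05 and -7.13 in Ov4Carbo7. In Ov4Carbo its values were -4.95, -1.68 and -1.28 and in Ov4Carbo4 -0.37, -0.51 and -0.53. The changes were -9.52 (SE 0.72, adjusted p = 6.30e-07), -9.95, -6.07 and -3.90, or -3.53, -3.54, -3.25 and -2.77 on the log2(RPKM + 1) scale, in the order Ov4Cis, Ov4Carbo7, Ov4Carbo and Ov4Carbo4. The GRHL2 values of Ov4Carbo7 and Ov4Cis overlapped near the bottom of the scale. CDH1 was 5.32 units higher in Ov4Carbo7 than in Ov4Cis, and a part of GRHL2 in the CDH1 levels was not tested.

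ESRP1, an epithelial splicing regulator, had values of 5.48, 5.05 and 4.81 in the parental line and -3.90, -3.74 and -5.21 in Ov4Cis, and a mean of -0.68 ± 0.40 (SD, n = 3) in Ov4Carbo7. Unlike GRHL2, it had no overlap of values between Ov4Cis and Ov4Carbo7. The ESRP1 changes were -9.40 in Ov4Cis (SE 0.48, adjusted p = 2.44e-08), -5.79 in Ov4Carbo7, -2.16 in Ov4Carbo and -1.72 in Ov4Carbo4. In Ov4Carbo4 the changes of GRHL2 and ESRP1 were -0.43 and -0.02, not called, with the title series term. The epithelial markers EPCAM (-4.81, SE 0.19, adjusted p = 2.65e-09) and KRT7 (-8.85) fell with CDH1 in Ov4Cis. Of the 13 serous carcinoma markers in the table, 9 were called lower in Ov4Cis and 1 higher (WT1, 3.56, to a mean of -1.52). Of all genes 7.41% were called lower and 8.46% higher there. KRT7 was called lower in all 4 resistant lines and EPCAM also in Ov4Carbo7 (-2.97). Of 9 fibroblast markers 5 were in the table, their summed log2 RPKM ran from 2.85 to 3.27 in the parental line and from 2.14 to 2.73 in Ov4Cis. There COL1A2 fell by 4.24 (SE 0.42, adjusted p = 6.65e-06) and PDGFRB rose by 1.23 (SE 0.36, adjusted p = 0.0184), to a mean of -1.51. The sum ran from 2.66 to 2.94 in Ov4Carbo, from 3.52 to 3.87 in Ov4Carbo4 and from 2.91 to 3.24 in Ov4Carbo7. COL1A2 was called lower in all 4 resistant lines, and PDGFRB was called lower in the 3 carboplatin lines. Called higher were LUM in Ov4Carbo (2.16), COL1A1 in Ov4Carbo4 (1.21), and LUM (2.73) and THY1 (1.63) in Ov4Carbo7, while THY1 was lower in Ov4Carbo4 (-2.38). COL1A1 was the only one of the 5 with a mean of at least log2 RPKM 1 in the resistant lines, and the part of these markers in the results was not tested.

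**Figure D5:**
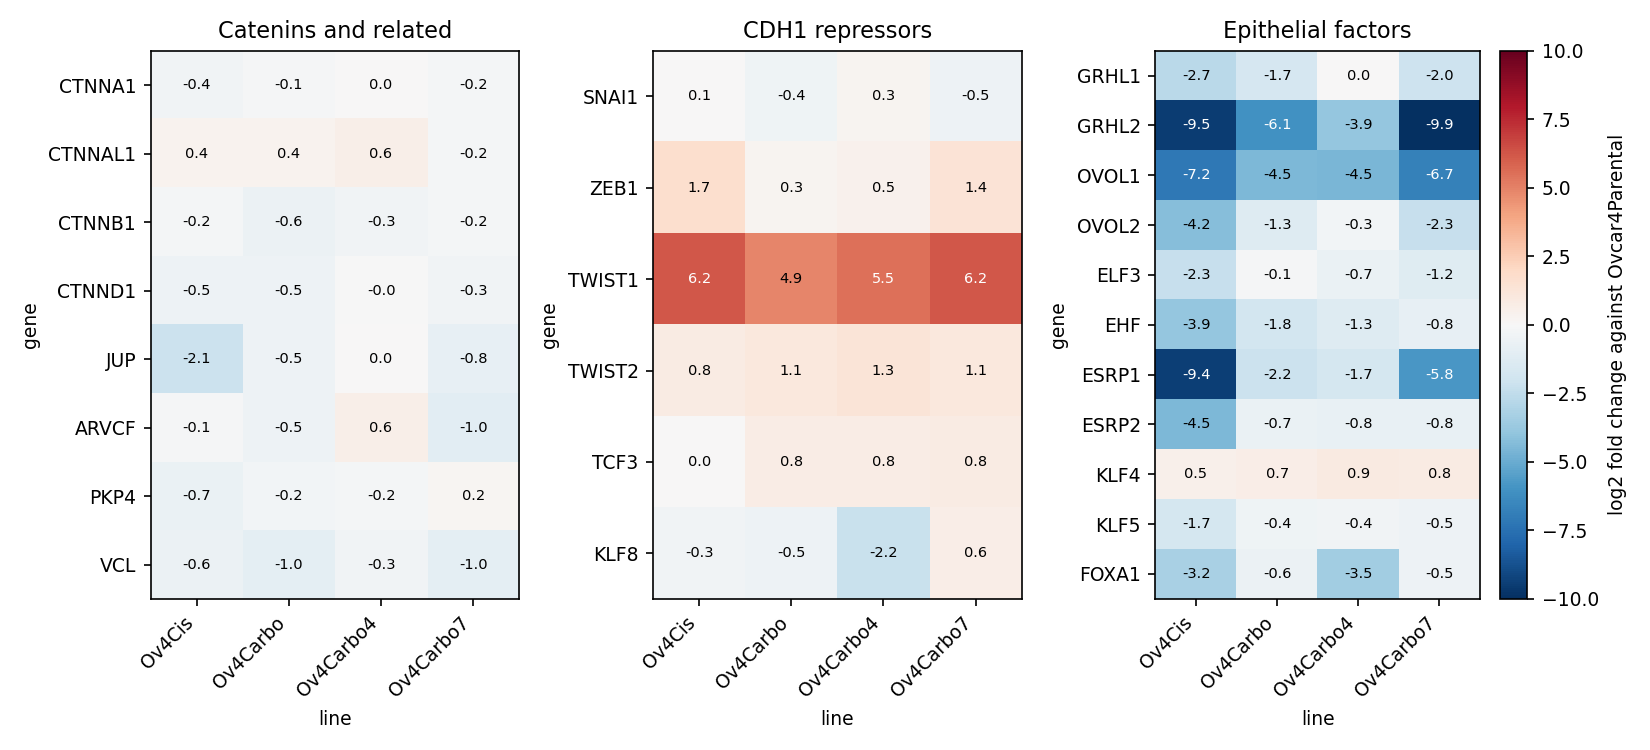
Log2 fold change against the parental line (colour and number) of catenins and related proteins, repressors of CDH1 and epithelial factors (rows) in the 4 resistant lines (columns). JUP is the only catenin past -2 in Ov4Cis, ZEB1 rises in Ov4Cis and Ov4Carbo7, and GRHL2, OVOL1 and ESRP1 are the lowest of the epithelial factors in Ov4Cis and Ov4Carbo7.

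Enzymes and receptors that process, shed or turn over cadherins were listed too. Of 19 listed, 17 were in the table, and 0 were called in Ov4Cis and in Ov4Carbo, 1 fell in Ov4Carbo4 and 1 rose in Ov4Carbo7, where 15.9%, 12.7%, 15.1% and 17% of all genes were called in either direction. At an unadjusted p under 0.05 (limma), for which no share of all genes is given, the counts higher and lower were 2 and 6, 2 and 4, 3 and 2, and 5 and 3. PTPRM, a receptor phosphatase that associates with classical cadherins, fell by 5.10 in Ov4Carbo4, from a parental mean of 5.89 to 0.79, while the other lines stood between 6.25 and 6.82. MMP14, a membrane-bound metalloprotease, rose by 1.38 in Ov4Carbo7 (adjusted p = 0.00214), or 0.74 and not called with the title series term.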

How the data were processed

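RNA from 5 lines (15 samples) was sequenced. Per the submitters' processing notes, BWA 0.7.15-r1140, HTSeq and the builds hg19 and GRCh37 were used; the annotation is not given in the sources used here. Per the deposited table's name, its log2 values are RPKM that the authors normalized with cqn (conditional quantile normalization), under a threshold whose rule is not given. Medians per sample were 2.77, so differences in total RNA are not measurable. The table held 16604 genes with 0 missing values, and 0 sample pairs were identical. Symbols matched 16448 genes by Ensembl identifier.

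A coefficient per line was fitted to all genes and samples with limma 3.58.1 (R 4.3.3; lmFit and eBayes, two-sided), with Benjamini-Hochberg adjustment over all genes in each of 10 contrasts. A call took an adjusted p below 0.05 with a log2 fold change of 1 or more in either direction. Shares used linear RPKM. Python 3.11.15 with pandas 2.3.3 made the tables and matplotlib 3.10.9 the plots. The model was tested on simulated data.

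The members and lists were chosen with earlier results of these data known. Beside the members, the text names core junction genes, the 3 largest called rises and falls of each list and parental comparison (values apart, higher mean at least log2 RPKM 1), the nearest neighbours on the chromosome, and the 3 genes most correlated with CDH1, CDH2 and CDH6. CDH11 was in that rule but was not analysed here. Marker values check the identity of the lines. Alternatives were a variance trend, quantile normalization, median centring, a filter on the mean (12037 genes kept), a replicate block, a title series term, the log2(RPKM + 1) scale, a fit to the compared lines alone, an adjusted p under 0.01, and each replicate left out. Samples of a single title series alone were an alternative chosen after seeing the data.

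Replicate numbers are in the labels, which do not say that a number marks a shared culture or day. Same-numbered samples deviated together (every correlation over 0.1) only for Ov4Cis and Ov4Carbo7, from 0.14 to 0.257.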

Additional observations from a re-analysis of the deposited data

Results flagged for a closer look

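In 4 genes the clones differed from each other (limma contrast of Ov4Carbo7 minus Ov4Carbo4), with fold changes of opposite sign against Ov4Carbo, the line both came from. The difference was -1.81 for CDH1 (Ov4Carbo4 0.74 and Ov4Carbo7 -1.08 against Ov4Carbo). It was -2.20 for CDH3 (0.36 and -1.84), -1.53 for CDH13 (0.56 and -0.97) and -1.79 for CDH24 (1.58 and -0.21). Of the 8 changes against Ov4Carbo only 3 were called: CDH24 in Ov4Carbo4 (SE 0.19, adjusted p = 4.90e-05) and CDH1 (SE 0.32, adjusted p = 0.0188) and CDH3 (SE 0.34, adjusted p = 0.00137) in Ov4Carbo7. The other 5 had limma adjusted p of 0.08 (CDH1), 0.421 (CDH3) and 0.26 (CDH13) in Ov4Carbo4 and 0.0648 (CDH13) and 0.399 (CDH24) in Ov4Carbo7. In this fit, without the title series term, a position on either side of Ov4Carbo was therefore not shown for any of the 4 genes. For CDH3 the Ov4Carbo4 change was -0.05 without Ov4Carbo replicate 1. Against that replicate alone, within the first title series, CDH3 changed by 1.18 in Ov4Carbo4 and by -1.02 in Ov4Carbo7. The changes from Ov4Carbo share its samples, whereas the difference between the clones does not use them.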

How the results depend on the processing

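Of 1078 fold changes of the 7 genes under the alternatives, 1022 kept the same side of the call, 35 lost the call and 21 gained it. The variance trend, filter on the mean, replicate block, fit to the compared lines alone and stricter adjusted p leave the fold change itself unaltered. For Ov4Carbo against the parental line, the title series term, omission of Ov4Carbo replicate 1 and a single title series give the same fold change (-1.48 for CDH1). The 1078 are therefore not independent checks. Of the 1022, 10 changed sign, none of them called in either fit: CDH2 in Ov4Carbo4 against Ov4Carbo (0.16) was -0.22 with the title series term and within a single title series, and the other 8 came from leaving out a replicate (values from -0.19 to 0.21; CDH2 and CDH3 in Ov4Carbo4 against Ov4Carbo, CDH13 in Ov4Cis against Ov4Carbo4, and CDH16 and CDH24 in Ov4Cis against the parental line). Of 70 fold changes, 50 kept the call under every alternative run. For Ov4Carbo4 against the parental line 5 of 7 genes were called, and 3 at an adjusted p under 0.01, 3 on the log2(RPKM + 1) scale, 3 with the title series term and 3 to 5 with a replicate left out. For Ov4Carbo4 against Ov4Carbo 2 became 1 on the log2(RPKM + 1) scale, 4 with the title series term and 4 within a single title series. For Ov4Carbo7 against Ov4Carbo 3 became 1 with the title series term. For Ov4Cis against Ov4Carbo 3 became 3 to 5 with a replicate left out, with 5 without Ov4Cis replicate 1. The cause was not tested.

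With RPKM + 1 the shares of CDH13 and CDH16 were 1.49 and 1.69 percent in the parental line, of CDH1 and CDH3 0.668 and 0.901 in Ov4Cis, of CDH16 and CDH24 4.54 and 6.67 in Ov4Carbo, of CDH3, CDH6 and CDH16 3.84, 33.9 and 2.31 in Ov4Carbo4, and of CDH2, CDH3, CDH16 and CDH24 37.7, 2.42, 5.65 and 8.32 in Ov4Carbo7. CDH1 minus CDH2 in Ov4Cis was then -5.96. Outside the 7 genes PRSS8 in Ov4Carbo4 turned from -1.34 to 0.06 with the title series term.

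With the replicate block 0 of 70 calls of the 7 genes changed. Every line has the same replicate numbers, so the block cannot alter a fold change, only its SE and p. The labels give no pairing beyond the number. For 4 of 15 samples the mean correlation with samples of the other lines was highest for their own number.

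Counts over all genes were lower on the log2(RPKM + 1) scale. Against the parental line they went from 2635 to 1258 in Ov4Cis, 2106 to 790 in Ov4Carbo, 2513 to 1053 in Ov4Carbo4 and 2824 to 1294 in Ov4Carbo7. Against Ov4Carbo they went from 2360 to 905 in Ov4Carbo4, 2214 to 823 in Ov4Carbo7 and 2288 to 958 in Ov4Cis. Between the clones 3478 became 1746, and for Ov4Cis against Ov4Carbo4 and Ov4Carbo7 2797 became 1277 and 2434 became 1104. With the filter on the mean, which tests fewer genes, the counts in the same order were 988, 730, 971, 1134, 996, 851, 840, 1645, 1196 and 1041. The share called higher moved by over 10 points for Ov4Carbo4 against the parental line (49.1 to 38.7 percent, log2(RPKM + 1)), Ov4Carbo4 against Ov4Carbo (53.3 to 43.1, filter) and Ov4Cis against Ov4Carbo (57.2 to 45.8, filter).

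Library depths were not used here, so counting error is left aside. Values near the bottom of the scale fix a direction better than a size. Among them are CDH1, ESRP1 and FAT3 in Ov4Cis, TWIST1 in the parental line, and GRHL2 in Ov4Cis and Ov4Carbo7. With 3 replicates a line, p-values measure the spread between these samples.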

Other observations

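Cadherins not among the chosen genes moved in both directions. Of 39 listed, 18 were in the table. Against the parental line 3 were called higher and 4 lower in Ov4Cis, 1 and 4 in Ov4Carbo, 3 and 5 in Ov4Carbo4, and 4 and 3 in Ov4Carbo7. Of all genes 15.9%, 12.7%, 15.1% and 17% were called in either direction in these comparisons. The list, and so its counts, also holds CDH5, called higher in Ov4Cis and Ov4Carbo4, and CDH18, called higher in Ov4Carbo and Ov4Carbo7. In Ov4Carbo CDH18 was the only gene of the list called higher. FAT3, of the FAT family of giant cadherins, had a parental mean of 3.25 and fell by 7.99 in Ov4Cis (SE 0.46, adjusted p = 6.60e-08), 4.98 in Ov4Carbo and 6.31 in Ov4Carbo7. On the log2(RPKM + 1) scale FAT3 changed by -3.34, -3.01 and -3.21 in these lines. In Ov4Carbo4 it stood at 3.04, a change of -0.20 (adjusted p = 0.762). FAT1 showed another order and fell most in Ov4Carbo4, by 2.74 (SE 0.21, adjusted p = 1.32e-06), and by 1.26 in Ov4Cis. FAT4 fell by 1.55 in Ov4Carbo4 and rose by 1.62 in Ov4Carbo7 (limma adjusted p = 0.00256 and 0.00166), and the latter was 0.74 with the title series term.

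CELSR2, a planar polarity cadherin with 7 membrane passes, fell by 1.63 in Ov4Cis and by 1.60 in Ov4Carbo7. CDHR1, known from photoreceptors, fell by 2.95 in Ov4Carbo4. DSG2, a desmosomal cadherin that binds the plakoglobin encoded by JUP, had a parental mean of 5.70 and means of 5.68 to 6.37 elsewhere, with 0 calls. It was named after its values were seen.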
